A study of Mus musculus with 3 samples.

Results

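The genes followed here are 9 that carry calcium signals inside neurons: the CaMKII subunits *Camk2a*, *Camk2b*, *Camk2d* and *Camk2g*, the calcineurin genes *Ppp3ca*, *Ppp3cb* and *Ppp3r1*, and the classical protein kinases C *Prkca* and *Prkcb*. They were taken by name and are 9 of the 32285 genes in the count matrices. All 9 were found in each of 3 single-nucleus RNA-Seq (snRNA-Seq) libraries of mouse prefrontal cortex (PFC). In outline, *Camk2a* was highest in excitatory-like nuclei, *Camk2g* in astrocyte-like nuclei and *Ppp3ca* in medium-spiny-like nuclei of every library. How far medium-spiny-like nuclei stood apart from excitatory-like nuclei depended on how the class was drawn. Within the cortical layers *Camk2d*, *Prkca* and *Camk2a* were lower in deep-layer-like than in layer 2/3-like nuclei, and *Prkcb* was higher there.

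CaMKII is an abundant kinase of the synapse that is switched on by calcium-bound calmodulin and can then hold its own activity by phosphorylating itself, and it is best known for its part in long-term potentiation. Calcineurin is the phosphatase that answers the same calcium signal: a catalytic A subunit, encoded by *Ppp3ca* or *Ppp3cb*, binds the small regulatory B subunit encoded by *Ppp3r1*, and the enzyme works against CaMKII at synapses and releases NFAT factors to the nucleus. The classical protein kinases C need both calcium and diacylglycerol, the lipid that phospholipase C makes below many G-protein-coupled receptors.

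The series compared *Nav1* KO mice, which lack neuron navigator 1 and carry a CRISPR deletion with an early stop codon on a C57BL/6 background, with age-matched wild-type C57BL/6J mice, and added a library of the inbred strain BTBR T+ Itpr3tf/J, here called BTBR, for which the labels give no genotype. All mice were male and 6 to 8 weeks old and no treatment was given in the labels. For the C57BL/6J library the PFC of 5 animals was pooled and for the *Nav1* KO library that of 4, and the number of BTBR mice is not stated. Nuclei had been sorted to a mix of NeuN+ and NeuN- nuclei before capture, so that the sort sets how many neurons each library holds. With 1 library per group there was no replicate check of any difference between groups, no p-value is given, and the exact 95% intervals in parentheses cover counting error alone.

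After nuclei with under 200 genes or at least 10% mitochondrial counts were left out, 14630 of 15402 C57BL/6J, 14056 of 14623 *Nav1* KO and 14777 of 15238 BTBR barcodes were kept. The series' own cell numbers equal these kept nuclei for C57BL/6J and *Nav1* KO, and equal all barcodes for BTBR. Median depth was 2074, 2754 and 2510 unique molecular identifiers (UMIs) per nucleus. Any 2 libraries shared 55 to 66 cell barcodes, at most 0.47% of a library. *Nav1* itself was at 345, 264 and 146 CPM (counts scaled to a common total of counts) over all kept nuclei of C57BL/6J, *Nav1* KO and BTBR, but these are 3′ tags that lie outside the deleted part and check nothing about the genotype label.

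Nuclei were grouped into 30 clusters and clusters were named "X-like" from fixed marker lists. The excitatory-like class held 6868, 6554 and 6271 nuclei of C57BL/6J, *Nav1* KO and BTBR. In the interneuron-like class were 983, 678 and 1140. Markers of tissue next to the PFC were found as well. Medium-spiny-like nuclei (*Rgs9*, *Penk*, *Tac1*, *Ppp1r1b*), which resemble the main neuron of the striatum, were 6.36%, 2.02% and 3.26% of the 3 libraries, and nuclei like olfactory bulb mitral or tufted cells numbered 39, 594 and 315. The share of such nuclei therefore differed between the pools, which is why every level below is given within a class. A level is the sum of a gene's counts over the nuclei of a class, scaled to the total of all counts of those nuclei as CPM. CPM of 3′ tags says nothing of one gene against another, so each gene is compared only with itself across classes and libraries.

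The 4 CaMKII genes are close copies, and whether their counts can be told apart was examined first on the GENCODE M21 transcripts (GRCm38). No stretch of 50 bases was shared between the transcripts of any pair of members. The coding stretch around the autophosphorylation threonine, the residue through which CaMKII holds its activity, is shown as an example. Its likeness was not ranked against other stretches, and *Camk2a* is not printed. Capitals mark the 20 of 57 bases that are not shared by all 3 genes printed.
Camk2b: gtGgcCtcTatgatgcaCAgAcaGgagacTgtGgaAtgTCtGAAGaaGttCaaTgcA
Camk2d: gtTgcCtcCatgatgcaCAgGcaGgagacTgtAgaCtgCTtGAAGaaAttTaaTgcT
Camk2g: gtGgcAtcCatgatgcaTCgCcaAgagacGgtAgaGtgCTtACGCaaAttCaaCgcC
Here *Camk2b* and *Camk2d* had 47 of 57 bases in common, *Camk2d* and *Camk2g* 42, and *Camk2b* and *Camk2g* 39. On the same build *Camk2b* lies at chr11:5969644-6066362 on the minus strand, *Camk2d* at chr3:126596302-126846326 on the plus strand and *Camk2g* at chr14:20734875-20794088 on the minus strand. *Ppp3ca* lies at chr3:136670124-136937727 (plus), *Ppp3cb* at chr14:20499364-20546573 (minus), *Ppp3r1* at chr11:17159263-17200375 (plus), *Prkca* at chr11:107933387-108343928 (minus) and *Prkcb* at chr7:122288751-122634402 (plus). The one member whose counts are uncertain is *Ppp3r1*, which overlaps *Wdr92* on the same strand and shares 413 of its 3177 windows of 50 bases, or 13.0%, with it. *Camk2d*, *Ppp3cb* and *Prkca* overlap other counted genes on the opposite strand only.

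*Camk2a*, the alpha subunit of CaMKII and the classic marker of forebrain excitatory neurons, was highest in excitatory-like nuclei of all 3 libraries. Its level there was 570 CPM (559–580) in C57BL/6J, 483 CPM (474–492) in *Nav1* KO and 501 CPM (491–511) in BTBR. In interneuron-like nuclei it was 297 CPM (277–318), 263 CPM (244–284) and 274 CPM (258–291), and in astrocyte-like nuclei 137 CPM (104–176), 133 CPM (111–158) and 134 CPM (108–164). The excitatory-like interval was clear of that of the next class in each library, while the classes in the middle of the order mostly overlapped their neighbors. Oligodendrocyte-like nuclei, which should lack the gene, held 303 CPM (269–340), 238 CPM (202–278) and 247 CPM (205–294), and in each library this interval overlapped that of the interneuron-like nuclei. How much of the *Camk2a* in interneuron-like nuclei was their own was not tested.

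The transcript of the glutamate transporter *Slc17a7*, which marks cortical excitatory neurons, was read beside *Camk2a* in each class. It was at 727, 820 and 933 CPM in excitatory-like nuclei of C57BL/6J, *Nav1* KO and BTBR and at 263, 293 and 316 CPM in interneuron-like nuclei, where all 6 markers of the list for excitatory neurons had counts and summed to 432 to 462 CPM, against 1126 to 1279 CPM in excitatory-like nuclei. As a share of the excitatory-like level, *Slc17a7* stood at 0.362, 0.357 and 0.339 in interneuron-like nuclei and at 0.550, 0.525 and 0.456 in oligodendrocyte-like nuclei. *Camk2a* in interneuron-like nuclei stood at 0.522, 0.546 and 0.547 of its own excitatory-like level, above the *Slc17a7* fraction, and in oligodendrocyte-like nuclei at 0.531, 0.493 and 0.492, close to it. Astrocyte-like nuclei were lower, with *Slc17a7* at 0.185, 0.166 and 0.121 of the excitatory-like level. Where the *Slc17a7* counts outside excitatory-like nuclei came from was not tested, nor was the part of excitatory RNA in the *Camk2a* levels. When nuclei with a UMI of the other class were left out, an alternative chosen after seeing the data, the excitatory-like over interneuron-like ratio of *Camk2a* went from 1.92 (1.79–2.06) to 2.55 in C57BL/6J, from 1.83 (1.70–1.98) to 3.48 in *Nav1* KO and from 1.83 (1.71–1.95) to 2.61 in BTBR.

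Depth differs between classes, so the share of nuclei with a *Camk2a* UMI was computed on nuclei thinned at random to 1000 UMIs. It was then 42.4% (41.3–43.6), 36.5% (35.3–37.7) and 38.5% (37.3–39.7) of excitatory-like nuclei in C57BL/6J, *Nav1* KO and BTBR, after 166, 119 and 109 shallower nuclei were left out. In interneuron-like nuclei it was 21.8%, 20.7% and 19.9%, and in oligodendrocyte-like nuclei 22.9% (17.9–28.6), 15.4% (10.6–21.2) and 17.1% (11.5–24.1). Left out as shallower were 71, 25 and 48 interneuron-like nuclei. Of the oligodendrocyte-like nuclei 160 of 413, 49 of 244 and 87 of 239 were left out, so their shares describe the deeper nuclei alone. Without thinning the excitatory-like shares were 71.3%, 71.5% and 73.3%, the interneuron-like shares 43.4%, 44.1% and 44.7%, and the oligodendrocyte-like shares 34.6%, 30.7% and 28.9%. The thinned shares kept the order of the CPM values, with excitatory-like nuclei above both other classes.

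**Figure D1:**
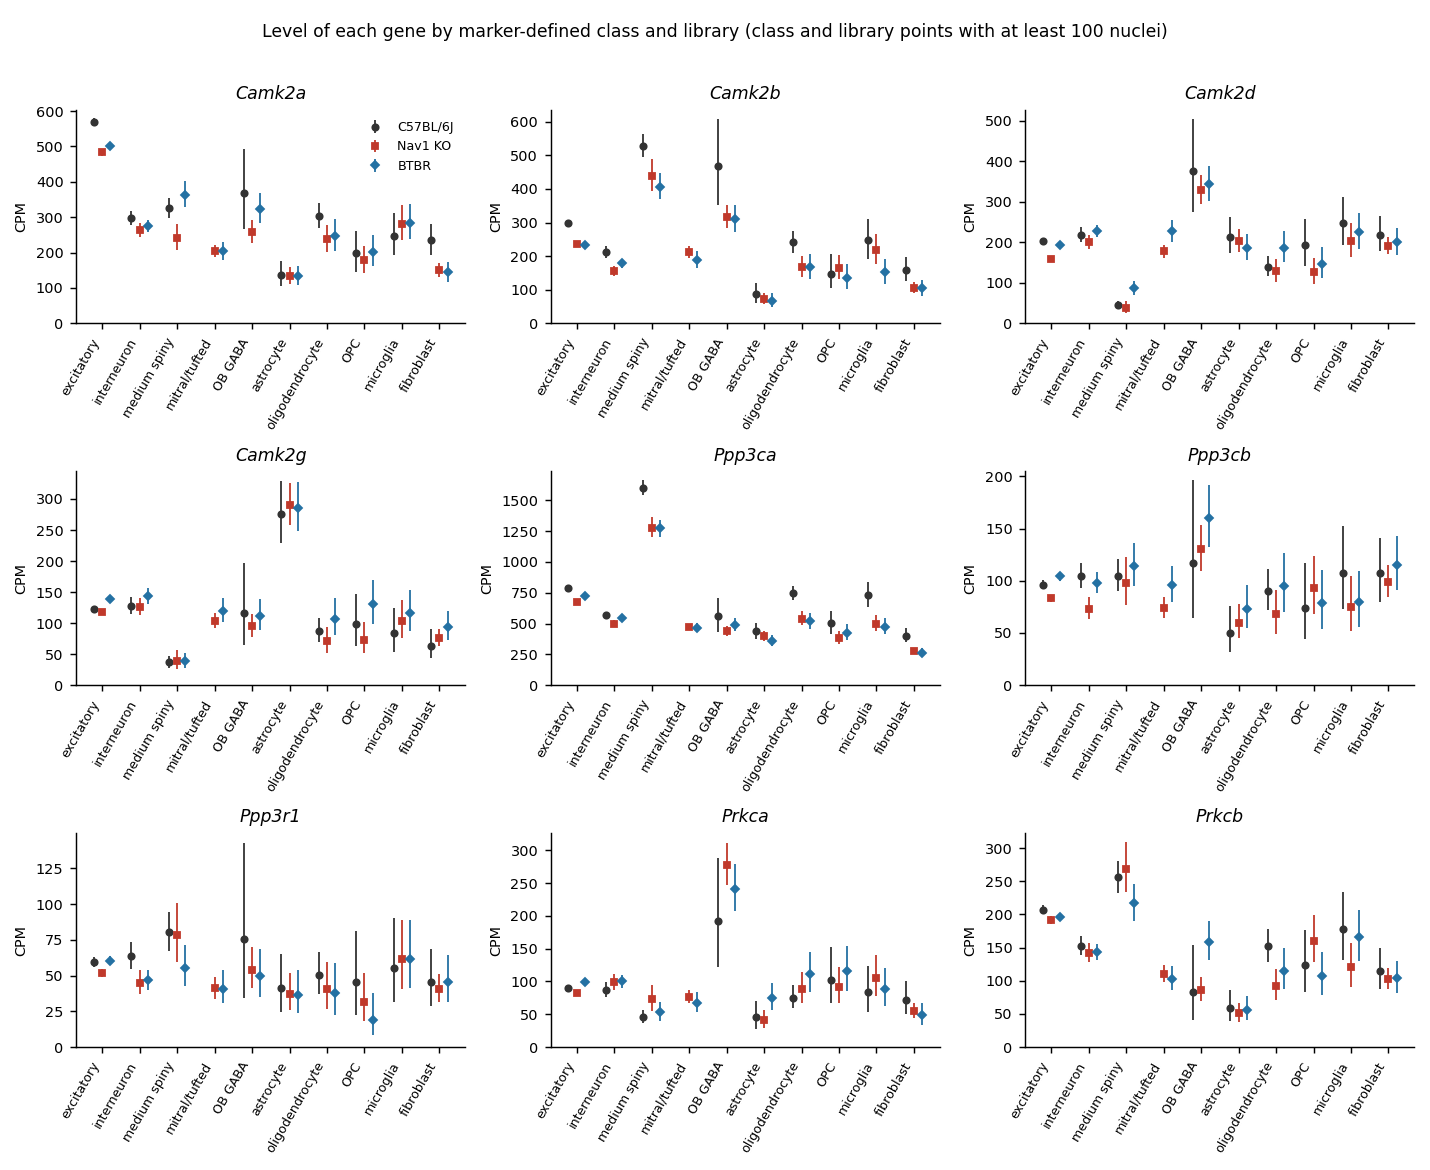
Level of each of the 9 genes in CPM (vertical axis, linear, from 0, a panel per gene) in 10 marker-defined classes, with a point for each library of at least 100 nuclei and bars for the exact 95% Poisson interval. *Camk2a* stood highest in excitatory-like nuclei at 483 to 570 CPM, *Camk2g* in astrocyte-like nuclei at 276 to 290 CPM, and *Ppp3ca* in medium-spiny-like nuclei at 1273 to 1601 CPM. The medium-spiny-like contrast depended on how that class was drawn.

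Over all 9 members, *Camk2a* was the only one at least 1.5-fold higher in excitatory-like than in interneuron-like nuclei of C57BL/6J and of BTBR, and *Camk2a* and *Camk2b* were those of *Nav1* KO. No member was 1.5-fold lower. Of all genes at 20 CPM or more in either class, 6.62%, 6.68% and 6.26% were at least 1.5-fold higher in C57BL/6J, *Nav1* KO and BTBR, and 14.8%, 14.3% and 13.3% were at least as much lower. The median ratio over those genes was 0.930, 0.920 and 0.913, and over the members 1.03, 1.14 and 1.30. A count of 1 or 2 members among 9 is too small to be called near or above the share of all genes.

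*Camk2b*, the beta subunit, which binds actin and brings CaMKII to the spine, was 298 CPM (290–306), 236 CPM (230–242) and 234 CPM (228–241) in excitatory-like nuclei and 212 CPM (195–230), 156 CPM (142–172) and 178 CPM (165–192) in interneuron-like nuclei. Its ratio was 1.40 (1.29–1.53), 1.51 (1.37–1.67) and 1.31 (1.21–1.43), so it passed 1.5-fold in *Nav1* KO alone. The calcineurin catalytic gene *Ppp3ca* had ratios of 1.39, 1.36 and 1.32 and *Prkcb* of 1.36, 1.35 and 1.37, all under 1.5-fold and each above 1 in every library. *Camk2d*, the delta subunit better known from heart, was slightly lower in excitatory-like nuclei, with ratios of 0.925, 0.794 and 0.849. *Camk2g*, *Ppp3cb*, *Ppp3r1* and *Prkca* had ratios between 0.832 and 1.30.

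Another way to read the CaMKII genes is by the makeup of their summed counts in a class, which is free of the class total. *Camk2a* gave 47.8% (47.1–48.4), 48.5% (47.9–49.1) and 47.0% (46.3–47.6) of the 4-gene sum in excitatory-like nuclei of C57BL/6J, *Nav1* KO and BTBR. Its share in interneuron-like nuclei was 34.7% (32.8–36.7), 35.3% (33.2–37.4) and 33.3% (31.6–35.0). The difference was 13.1, 13.2 and 13.7 percentage points and was alike in the 3 libraries. The *Slc17a7* counts of interneuron-like nuclei stood beside it here as well. Such shares compare classes and not genes, since each transcript's 3′ end is captured with its own efficiency.

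**Figure D2:**
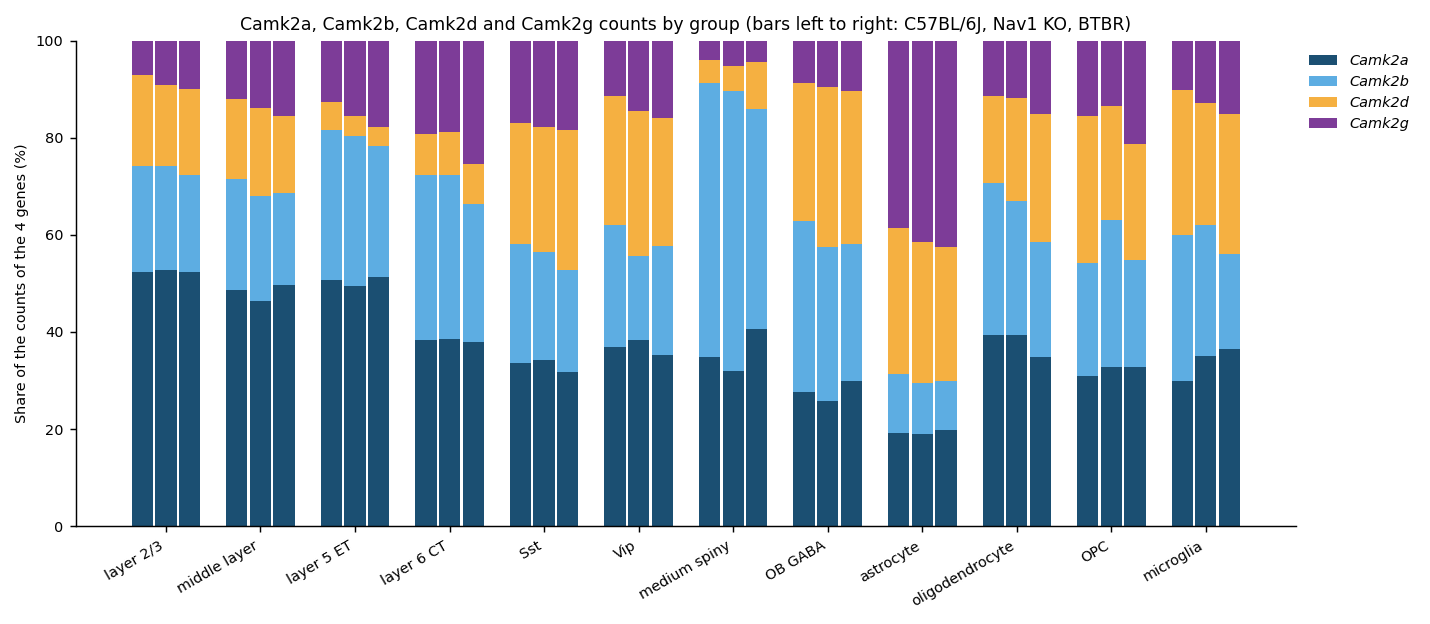
Share (percent, vertical axis) of each CaMKII gene in the summed counts of the 4 genes, as stacked bars for 12 groups of nuclei, with the bars of a group in the order C57BL/6J, *Nav1* KO, BTBR. *Camk2a* took 47.0% to 48.5% over all excitatory-like nuclei and 52.3% to 52.7% in layer 2/3-like nuclei, *Camk2b* 45.5% to 57.8% in medium-spiny-like nuclei, and *Camk2g* 38.7% to 42.5% in astrocyte-like nuclei.

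Medium-spiny-like nuclei differed from excitatory-like nuclei in both directions. *Camk2b* and *Ppp3ca* were higher there and *Camk2d* and *Camk2g* were lower, in all 3 libraries. *Ppp3ca* was at 1601 CPM (1543–1662) in C57BL/6J, 1278 CPM (1199–1361) in *Nav1* KO and 1273 CPM (1206–1342) in BTBR, against 791 CPM (779–804), 678 CPM (668–688) and 724 CPM (712–736) in excitatory-like nuclei. Its ratio was 2.02 (1.94–2.11), 1.89 (1.77–2.01) and 1.76 (1.66–1.86).

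*Camk2b* was at 528 CPM (495–564), 439 CPM (393–489) and 407 CPM (370–447) in medium-spiny-like nuclei, which is 1.77 (1.65–1.90), 1.86 (1.66–2.08) and 1.74 (1.57–1.92) times the excitatory-like level. *Camk2b* thus made up 56.6% (54.1–59.0), 57.8% (53.6–61.9) and 45.5% (42.3–48.7) of the CaMKII sum, and the BTBR share lay below the other 2. *Camk2g*, the gamma subunit, which can carry calmodulin from the membrane to the nucleus, was at 36.6 CPM (28.2–46.8), 39.8 CPM (26.8–56.8) and 38.9 CPM (28.1–52.6), or 0.299, 0.339 and 0.281 times the excitatory-like level. *Camk2d* was at 44.1 CPM (34.8–55.1), 38.5 CPM (25.8–55.2) and 86.2 CPM (69.6–106), from 77, 29 and 93 counts, or 0.218, 0.241 and 0.446 times. In each library these intervals lay below those of the excitatory-like class, where *Camk2g* was at 123, 117 and 139 CPM and *Camk2d* at 203, 159 and 193 CPM.

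*Camk2a* in medium-spiny-like nuclei was 325 CPM (299–353), 243 CPM (209–280) and 363 CPM (328–401), or 0.571, 0.502 and 0.725 times the excitatory-like level. *Slc17a7* stood at 0.139, 0.107 and 0.106 of its excitatory-like level in the same nuclei, lower than in interneuron-like nuclei. The *Camk2a* intervals overlapped the oligodendrocyte-like level in C57BL/6J and *Nav1* KO and lay above it in BTBR. *Prkca* was at 0.508 (0.401–0.636), 0.888 (0.666–1.16) and 0.532 (0.401–0.692) of its excitatory-like level, and the *Nav1* KO ratio was not distinguishable from 1. *Ppp3r1* (1.34, 1.52 and 0.919 times), *Ppp3cb* (1.09, 1.18 and 1.10) and *Prkcb* (1.23, 1.41 and 1.11) stayed closer to the excitatory-like level, apart from *Ppp3r1* in *Nav1* KO. Past 1.5-fold were 2 members higher and 4 lower in C57BL/6J, 3 higher and 3 lower in *Nav1* KO, and 2 higher and 3 lower in BTBR, where 29.5%, 33.0% and 26.2% of all genes tested were past it in either direction. That is 6, 6 and 5 of 9. The count depended on how the class was drawn, being 0 in every library when single nuclei were gated by marker UMIs and 0 or 1 at resolution 2.0 in *Nav1* KO and C57BL/6J.

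Shares of nuclei with a *Ppp3ca* UMI, thinned to 1000 UMIs, were 74.9%, 65.1% and 68.0% in medium-spiny-like, 52.7%, 45.7% and 50.1% in excitatory-like and 34.3%, 32.6% and 30.0% in astrocyte-like nuclei. They were 85.0%, 85.2% and 86.3%, then 80.0%, 79.5% and 82.3%, and then 37.5%, 42.5% and 41.4% before thinning. The order of the 3 classes was that of the CPM values. Thinning left out 157, 133 and 113 astrocyte-like nuclei as too shallow. Among the calcineurin catalytic genes, with the testis-type gene *Ppp3cc* as the other member, *Ppp3ca* gave 93.6%, 92.4% and 90.9% of the summed counts in medium-spiny-like nuclei, 87.5%, 87.3% and 85.6% in excitatory-like and 81.7%, 83.5% and 81.4% in interneuron-like nuclei.

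Of the glial classes, astrocyte-like nuclei stood apart by *Camk2g*. Its level was 276 CPM (229–329) in C57BL/6J, 290 CPM (257–326) in *Nav1* KO and 286 CPM (248–328) in BTBR, against 123 CPM (118–128), 117 CPM (113–122) and 139 CPM (134–144) in excitatory-like nuclei. That is 2.25 (1.86–2.70), 2.47 (2.18–2.80) and 2.06 (1.78–2.38) times higher, and its interval was clear of that of the next class in each library. All 7 markers of the list for astrocytes, from which the class was named, had counts in these nuclei and summed to 3347 to 4064 CPM. *Camk2d* was at 214 CPM (173–262), 204 CPM (176–234) and 186 CPM (156–220) in astrocyte-like nuclei, ratios of 1.06, 1.28 and 0.961. At 1000 UMIs a *Camk2g* UMI was found in 20.7%, 23.8% and 24.4% of astrocyte-like and 11.4%, 10.8% and 13.2% of excitatory-like nuclei. In medium-spiny-like nuclei, the class of lowest level, it was found in 3.25%, 3.31% and 5.44%. Thinning left out 157 of 355, 133 of 596 and 113 of 420 astrocyte-like nuclei as too shallow, so their shares describe the deeper nuclei alone. Without thinning the astrocyte-like shares were 26.8%, 33.2% and 37.1% and the excitatory-like shares 28.0%, 32.3% and 33.9%, since excitatory-like nuclei were deeper, with medians of 2514, 3157 and 2910 UMIs against 1051, 1458 and 1438.

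*Camk2a* and *Camk2b* were lower in astrocyte-like nuclei, at 0.240, 0.276 and 0.267 and at 0.290, 0.307 and 0.289 of the excitatory-like level. *Prkcb*, the protein kinase C gene of neurons and microglia, was at 0.285, 0.265 and 0.287. For *Ppp3ca* the ratios were 0.553, 0.584 and 0.4997 and for *Prkca* 0.506, 0.503 and 0.751. The count past 1.5-fold was 1 higher and 6 lower in C57BL/6J, and 1 higher and 5 lower in either other library, or 7, 6 and 6 of 9. With 59.5%, 57.2% and 57.5% of all genes past 1.5-fold between these classes, such a count is near the background and is no result about the members.

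*Prkca*, which encodes the alpha form of protein kinase C, was highest in nuclei like olfactory bulb GABA interneurons. Its level was 192 CPM (122–289) over 104 nuclei of C57BL/6J, 278 CPM (247–312) in *Nav1* KO and 241 CPM (207–279) in BTBR, and its interval was clear of the next class in *Nav1* KO and BTBR. The highest level of *Camk2d* was found in the same class, at 376 CPM (274–503), 329 CPM (296–366) and 343 CPM (302–388). Within the cortical interneuron-like nuclei, those of Vip type held more *Prkca* than those of Sst type. It was at 126, 150 and 129 CPM in the Vip type and at 68.5, 82.4 and 80.7 CPM in the Sst type, a ratio of 0.542 (0.419–0.703), 0.548 (0.425–0.712) and 0.628 (0.510–0.773). No other member passed 1.5-fold between these types in any library. The median ratio of all genes was 0.984, 0.967 and 0.992. No share of all genes past 1.5-fold is given for this pair, so the count of members has no background beside it.

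In nuclei like olfactory bulb mitral or tufted cells, of which C57BL/6J had 39, *Camk2a*, *Ppp3ca* and *Prkcb* had ratios below 1 to the excitatory-like class in every library, though not past 1.5-fold in each. They were not alone, since *Camk2g*, *Ppp3cb*, *Ppp3r1* and *Prkca* were also below 1 in every library. The median ratio of the 9 members was 0.684, 0.883 and 0.680, and that of all genes tested 1.08, 1.07 and 1.06. No share of all genes past 1.5-fold is given for this pair of classes. *Camk2a* was at 381 CPM (288–495), 204 CPM (188–222) and 204 CPM (179–230), which is 0.669, 0.423 and 0.406 times. Its *Nav1* KO and BTBR levels overlapped those of oligodendrocyte-like nuclei. *Ppp3ca* was at 442 CPM (341–563), 470 CPM (445–496) and 465 CPM (428–504), or 0.559, 0.693 and 0.642 times. *Prkcb* was at 122 CPM (72.6–194), 110 CPM (98.1–123) and 103 CPM (86.0–122), or 0.590, 0.576 and 0.525 times. *Camk2g* was also past 1.5-fold lower in C57BL/6J, at 0.610 from 11 counts, and at 0.883 and 0.861 in the other libraries, and the remaining members had ratios of 0.675 to 1.18. The *Ppp3ca* and *Prkcb* levels of the 3 libraries overlapped, while *Camk2a* was higher in the 39 C57BL/6J nuclei than in either other library.

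The excitatory-like class was divided by layer markers into layer 2/3-like, middle-layer-like, layer 5 extratelencephalic-like and layer 6 corticothalamic-like nuclei, and the remaining nuclei were left as other excitatory-like. These groups held 2024, 1859, 547 and 1067 nuclei in C57BL/6J, 2160, 2007, 509 and 806 in *Nav1* KO and 1684, 1608, 432 and 701 in BTBR. Layer 2/3-like nuclei came from cluster 1 (2013, 2128 and 85 nuclei) and cluster 9 (11, 32 and 1599), and middle-layer-like nuclei from cluster 2 (1793, 1913 and 242) and cluster 10 (66, 94 and 1366). The BTBR library thus sat in clusters of its own, which may be that library rather than a type, and values within these layers rest on different clusters. Cluster 10 was led by the activity genes *Fos*, *Egr4*, *Arc* and *Npas4*. *Fos* was at 17.8, 15.9 and 79.0 CPM in middle-layer-like nuclei, *Arc* at 35.6, 50.5 and 146 CPM and *Npas4* at 62.7, 80.6 and 165 CPM.

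*Prkca* differed by layer in all 3 libraries and was lowest in layer 6-like nuclei. It was at 131 CPM (122–140) in C57BL/6J, 114 CPM (107–121) in *Nav1* KO and 116 CPM (107–125) in BTBR in layer 2/3-like nuclei, and at 63.7 CPM (57.04–70.9), 56.7 CPM (51.3–62.6) and 66.7 CPM (59.8–74.1) in middle-layer-like nuclei. In layer 5 extratelencephalic-like nuclei it was 59.8 CPM (49.5–71.5), 55.0 CPM (46.1–65.2) and 49.7 CPM (39.6–61.5), and in layer 6 corticothalamic-like nuclei 27.9 CPM (21.7–35.4), 28.6 CPM (22.1–36.4) and 25.8 CPM (19.2–34.1). Among the layer groups, the layer 2/3-like and layer 6-like intervals were clear of the others in each library. The middle and layer 5 levels overlapped. The other excitatory-like nuclei were at 115 CPM (105–126), 106 CPM (95.8–117) and 149 CPM (139–159). Their interval overlapped that of layer 2/3-like nuclei in C57BL/6J and *Nav1* KO and lay above it in BTBR. Layer 6-like nuclei held 0.213 (0.164–0.273), 0.251 (0.193–0.322) and 0.223 (0.164–0.298) times the layer 2/3-like level. *Prkca* was the one member past 1.5-fold between middle-layer-like and layer 2/3-like nuclei, at 0.487, 0.499 and 0.577 times. The median ratio of all genes was 1.021, 1.038 and 1.025, and no share of all genes past 1.5-fold is given for this pair.

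*Prkcb*, the beta form, ran the other way. Its level was 157 CPM (147–167), 153 CPM (145–161) and 153 CPM (143–164) in layer 2/3-like nuclei and 225, 204 and 218 CPM in middle-layer-like nuclei. It was 298 CPM (275–323), 287 CPM (266–309) and 315 CPM (289–343) in layer 5-like and 254 CPM (234–275), 233 CPM (214–254) and 259 CPM (237–283) in layer 6-like nuclei. Ratios over layer 2/3 were 1.90 (1.71–2.11), 1.88 (1.71–2.06) and 2.06 (1.85–2.30) for layer 5 and 1.61 (1.46–1.79), 1.53 (1.38–1.69) and 1.70 (1.52–1.90) for layer 6.

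*Camk2d* was low in both deep-layer groups. It was at 270 CPM (257–283) in C57BL/6J, 190 CPM (181–199) in *Nav1* KO and 216 CPM (204–229) in BTBR in layer 2/3-like nuclei and at 184, 170 and 159 CPM in middle-layer-like nuclei. Layer 5 extratelencephalic-like nuclei held 55.3 CPM (45.4–66.6), 36.1 CPM (29.0–44.5) and 36.1 CPM (27.6–46.3), and layer 6 corticothalamic-like nuclei 76.3 CPM (65.8–88.1), 63.6 CPM (53.8–74.8) and 64.6 CPM (53.8–76.9). The layer 5-like level was 0.205 (0.167–0.249), 0.190 (0.152–0.236) and 0.167 (0.127–0.216) times that of layer 2/3, and the layer 6-like level 0.283 (0.242–0.330), 0.335 (0.281–0.397) and 0.299 (0.247–0.360) times. In the CaMKII sum its share was 18.9%, 16.7% and 17.8% in layer 2/3-like and 5.62%, 4.14% and 3.94% in layer 5-like nuclei. The remaining excitatory-like nuclei, which no layer list named, held 274, 207 and 284 CPM.

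**Figure D3:**
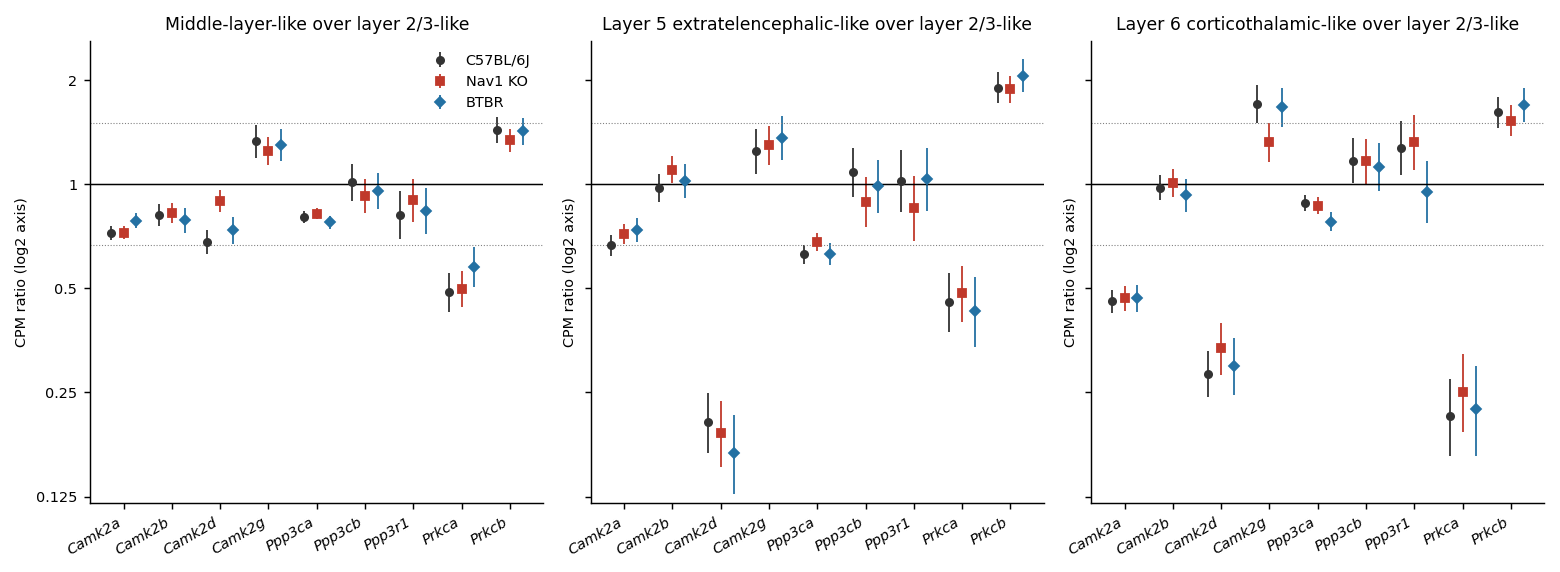
CPM ratio of each gene (vertical axis, log2 scale) in middle-layer-like, layer 5 extratelencephalic-like and layer 6 corticothalamic-like nuclei over layer 2/3-like nuclei, a panel each, with a point per library and bars for the exact 95% interval of the ratio. Dotted lines mark 1.5-fold, and *Camk2d* (0.167 to 0.205 in layer 5) and *Prkca* (0.213 to 0.251 in layer 6) lay far below it while *Prkcb* (1.88 to 2.06 in layer 5) lay above.

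As genes that differed by layer, lower (*Camk2d*, *Prkca*) or higher (*Prkcb*) in the deep groups, these are shown by their promoters, as the 250 bases before the RefSeq start (GRCm38.p6) on the gene's strand, with capitals for GC boxes (GGGCGG or its reverse complement CCGCCC), the sites of Sp-type factors.
Camk2d: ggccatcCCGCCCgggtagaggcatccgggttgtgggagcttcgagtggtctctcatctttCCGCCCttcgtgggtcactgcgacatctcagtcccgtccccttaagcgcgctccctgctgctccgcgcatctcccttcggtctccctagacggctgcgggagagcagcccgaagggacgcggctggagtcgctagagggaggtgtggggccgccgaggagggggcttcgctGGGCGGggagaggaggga
Prkca: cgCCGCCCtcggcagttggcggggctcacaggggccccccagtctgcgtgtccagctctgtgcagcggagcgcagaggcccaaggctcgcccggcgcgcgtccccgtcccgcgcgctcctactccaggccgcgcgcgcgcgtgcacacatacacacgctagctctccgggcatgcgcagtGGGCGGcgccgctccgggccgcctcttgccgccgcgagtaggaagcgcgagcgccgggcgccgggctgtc
Prkcb: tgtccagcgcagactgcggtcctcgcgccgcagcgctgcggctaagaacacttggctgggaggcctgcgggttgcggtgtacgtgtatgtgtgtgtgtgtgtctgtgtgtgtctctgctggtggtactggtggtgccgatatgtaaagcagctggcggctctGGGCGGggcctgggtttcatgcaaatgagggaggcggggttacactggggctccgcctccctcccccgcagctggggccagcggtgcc
These lie at chr3:126596701-126596950 (plus), chr11:108343889-108344138 (minus) and chr7:122288875-122289124 (plus) and hold 3, 2 and 1 GC boxes at 68.4%, 76.8% and 65.2% GC. By the gene spans given above, the *Camk2d* and *Prkcb* windows lie inside the gene and the *Prkca* window overlaps its start. Each window is thus tied to the RefSeq start used and not to the first annotated start. A promoter was found for 6 members, with *Camk2b*, *Ppp3cb* and *Ppp3r1* holding 3, 2 and 4 GC boxes. A GC box stood in 32.74% of the 32851 mouse promoters of the same length. The cAMP response element TGACGTCA (in 1.55% of all promoters), the TATA box TATAAA (12.37%) and the E-box CACGTG (6.02%) were in none of the 6 windows on either strand, and TGACG, which lies inside the first, was in that of *Ppp3r1* alone (17.77% of all promoters). These letters describe the windows and carry no statement on which factor binds there.

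*Camk2a* fell off with depth more gently. It was at 748 CPM (726–770), 601 CPM (585–617) and 636 CPM (615–657) in layer 2/3-like, 540, 435 and 499 CPM in middle-layer-like, 499, 432 and 469 CPM in layer 5-like and 343 CPM (320–367), 281 CPM (260–304) and 298 CPM (274–323) in layer 6-like nuclei. The layer 6-like ratio was 0.458 (0.425–0.493), 0.468 (0.431–0.508) and 0.468 (0.428–0.511), the same within counting error in the 3 libraries. *Camk2b* did not share this gradient, with layer 6 ratios of 0.978, 1.01 and 0.930, and it made up 34.0%, 33.8% and 28.5% of the CaMKII sum of layer 6-like nuclei. *Camk2g* was at 171 CPM (155–188), 138 CPM (123–154) and 200 CPM (181–221) in layer 6-like nuclei, ratios of 1.71 (1.51–1.94), 1.32 (1.16–1.505) and 1.67 (1.47–1.89).

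The calcineurin genes varied less between layers. *Ppp3ca* was lowest in layer 5 extratelencephalic-like nuclei, at 583 CPM (550–617), 529 CPM (501–559) and 542 CPM (508–578), which is 0.628 (0.589–0.670), 0.682 (0.642–0.724) and 0.629 (0.585–0.675) times the layer 2/3-like level. Layer 6 ratios of *Ppp3ca* were 0.882, 0.868 and 0.779. *Ppp3cb* had ratios between 0.890 and 1.17 and *Ppp3r1* between 0.854 and 1.33 in both deep layers, none past 1.5-fold. Past 1.5-fold were 4, 3 and 4 of 9 members for layer 5, beside 17.6%, 17.9% and 20.8% of all genes tested, and 5, 4 and 5 for layer 6, beside 23.7%, 25.0% and 23.0%. The share of members was thus above that of all genes in each library, as a description of genes picked by name.

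The layer groups were named from the layer marker lists, so the sums of those lists describe the naming and are no separate check. The 5 genes of the layer 2/3 list summed to 838, 657 and 670 CPM in layer 2/3-like nuclei and to 67.7, 50.7 and 48.6 CPM in layer 6-like nuclei, while the 6 genes of the layer 6 corticothalamic list summed to 62.2, 65.0 and 64.3 CPM in the former and 1424, 1339 and 1296 CPM in the latter. Of the 6 genes of the layer 5 extratelencephalic list, 5 had counts and *Chrna6* was at 0 in the layer 5-like nuclei of all 3 libraries. The list for excitatory neurons summed to between 944 and 1591 CPM in the layer 2/3-like and both deep groups.

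Between *Nav1* KO and C57BL/6J, excitatory-like nuclei showed no member past 1.5-fold. *Camk2d* and *Camk2b* had the lowest ratios, 0.787 (0.753–0.823) and 0.792 (0.764–0.821), followed by *Camk2a* at 0.848 (0.826–0.870) and *Ppp3ca* at 0.857 (0.838–0.876). *Ppp3r1* was at 0.865 (0.798–0.937), *Ppp3cb* at 0.866 (0.813–0.922), *Prkca* at 0.912 (0.855–0.973), *Prkcb* at 0.922 (0.884–0.962) and *Camk2g* at 0.958 (0.907–1.01). The ratio over all 7244 genes tested had a median of 0.920, and the *Prkca* and *Prkcb* intervals held that value, as did that of *Camk2g*, *Ppp3r1* and *Ppp3cb*, while those of *Camk2a*, *Camk2b*, *Camk2d* and *Ppp3ca* lay below it. The median of the 9 members was 0.865. Of all genes, 1.95% were at least 1.5-fold higher and 3.34% at least as much lower.

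Between layers the *Nav1* KO ratio of *Camk2d* was 0.704 (0.657–0.754) in layer 2/3-like, 0.923 in middle-layer-like, 0.654 (0.489–0.874) in layer 5-like and 0.834 in layer 6-like nuclei. For *Camk2a* it was 0.803, 0.806, 0.866 and 0.821, and for *Camk2b* 0.786, 0.795, 0.888 and 0.810. *Camk2b* was also lower in interneuron-like nuclei, at 0.736, where *Ppp3cb* was at 0.701 and *Ppp3r1* at 0.712. In each of the 4 layers the *Camk2a* and *Camk2b* ratios were below 0.920, the excitatory-like median of all genes. With equal weight for each excitatory subclass the pooled ratios were 0.768 for *Camk2d*, 0.807 for *Camk2b* and 0.837 for *Camk2a*.

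Between BTBR and C57BL/6J, the excitatory-like nuclei again had none of the 9 members past 1.5-fold, beside 5.57% of all genes higher and 4.62% lower. *Camk2b* was at 0.786 (0.757–0.817) and *Camk2a* at 0.880 (0.857–0.904), and *Ppp3ca*, *Prkcb* and *Camk2d* were at 0.915, 0.945 and 0.955. *Camk2g* was at 1.13 (1.07–1.20), *Prkca* at 1.10 (1.04–1.18), *Ppp3cb* at 1.08 (1.02–1.15) and *Ppp3r1* at 1.01 (0.937–1.10). The median over 7445 genes was 1.01 and that of the members 0.955. Both comparisons share the C57BL/6J library, so low *Camk2b* in each is not independent. For *Camk2b* the BTBR ratio was 0.773, 0.747, 0.809 and 0.735 in layer 2/3-like, middle, layer 5-like and layer 6-like nuclei, and for *Camk2g* 1.20, 1.17, 1.31 and 1.17.

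*Camk2d* and *Prkca* depended on which excitatory-like nuclei were summed. In BTBR over C57BL/6J *Camk2d* was at 0.801, 0.866, 0.653 (0.469–0.900) and 0.846 in the 4 layers and at 1.04 in the other excitatory-like nuclei, and *Prkca* at 0.883, 1.05, 0.831 and 0.926 in the layers and at 1.29 in the others. With equal weight for each subclass the ratios were 0.832 for *Camk2d* and 0.983 for *Prkca*. Without cluster 10, an alternative added after seeing the data, *Camk2b* moved to 0.832 and *Prkca* to 1.20. *Camk2d* in layer 5 extratelencephalic-like nuclei was the one member and layer past 1.5-fold in both comparisons, from 55.3 CPM in C57BL/6J to 36.1 CPM in each other library, and with intervals that reach 0.874 and 0.900. Both ratios share that C57BL/6J value and are not independent. No share of all genes past 1.5-fold is given for this layer between libraries.

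**Figure D4:**
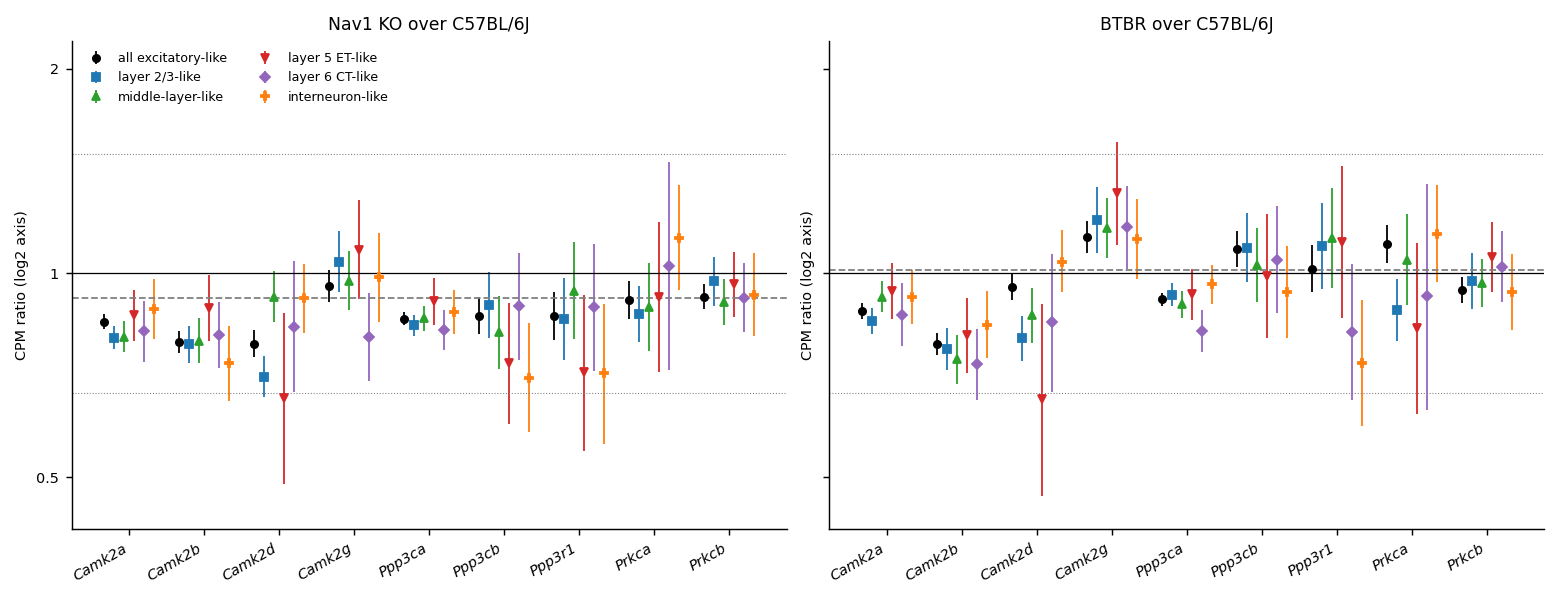
CPM ratio of each gene (vertical axis, log2 scale) for *Nav1* KO over C57BL/6J and BTBR over C57BL/6J, a panel each, in all excitatory-like nuclei, the 4 layer groups and interneuron-like nuclei, with bars for the exact 95% interval. The dashed line is the median of all genes in excitatory-like nuclei (0.920 and 1.01) and dotted lines mark 1.5-fold, which no gene passed in all excitatory-like nuclei.

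The genes that act with the members were read from a list of 42: calmodulins and their binding proteins, other CaM kinases, CaMKII and calcineurin inhibitors and anchors, NFAT factors, phospholipases C, diacylglycerol kinases and other protein kinases C. Between excitatory-like and interneuron-like nuclei, 31, 32 and 30 of them were tested in C57BL/6J, *Nav1* KO and BTBR, of which 7, 5 and 4 were at least 1.5-fold higher and 2, 4 and 3 lower. Of all genes tested, 6.62%, 6.68% and 6.26% were higher and 14.8%, 14.3% and 13.3% lower. *Nrgn*, neurogranin, which binds calcium-free calmodulin in spines, was 2.49, 2.2 and 2.06 times higher. *Camk2n2*, an inhibitor of CaMKII, was at 0.322, 0.325 and 0.311 of the interneuron-like level, and *Rcan2*, an inhibitor of calcineurin, at 0.303, 0.347 and 0.330. *Camk2n1*, another CaMKII inhibitor, ran the other way, at 1.66, 1.46 and 1.58 times the interneuron-like level.

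In medium-spiny-like over excitatory-like nuclei 11, 11 and 9 of 31 listed genes were higher and 3, 3 and 4 lower. Of all genes tested, 29.5%, 33.0% and 26.2% were past 1.5-fold in either direction. *Akap5*, the anchor that holds calcineurin and protein kinase C at the membrane, was 3.17, 3.58 and 4.00 times higher, *Rcan2* 3.17, 2.93 and 2.68 times and *Dgkb*, which removes diacylglycerol, 5.04, 5.04 and 4.82 times. *Pcp4*, another binder of calmodulin, was 4.01, 5.11 and 2.68 times higher and *Camk4*, a nuclear CaM kinase, 1.75, 2.39 and 2.13 times. *Camk1* was at 0.187, 0.225 and 0.450 and *Plcb4*, a phospholipase C, at 0.109, 0.294 and 0.296. The NFAT gene *Nfatc2* was 3.05, 4.01 and 7.17 times higher, and the protein kinase C gene *Prkch* 75.5, 156 and 30.0 times, the latter from 60, 29 and 22 counts against 9, 6 and 14 in excitatory-like nuclei. The anchor, the inhibitor and the lipid kinase were therefore higher in the class in which *Ppp3ca* and *Camk2b* were highest.

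By layer, *Pcp4* was 7.22, 10.3 and 9.21 times higher in layer 6 corticothalamic-like than in layer 2/3-like nuclei and 2.87, 2.79 and 4.17 times higher in layer 5-like nuclei. *Camk2n1* was at 0.271, 0.282 and 0.237 in layer 6 and 0.366, 0.388 and 0.352 in layer 5, and *Dgkb* at 0.172, 0.104 and 0.191 in layer 6. *Gap43*, a growth-cone substrate of protein kinase C, was 2.71, 2.99 and 2.87 times higher in layer 5. Of 29, 28 and 29 genes tested for layer 5, 5, 3 and 5 were higher and 7, 5 and 6 lower, beside 17.6%, 17.9% and 20.8% of all genes in either direction. Of 27, 27 and 28 for layer 6, 4 were higher in each library and 5, 6 and 4 lower, beside 23.7%, 25.0% and 23.0% of all genes. In astrocyte-like nuclei 4, 3 and 4 were higher, among them the protein kinase C gene *Prkcd* at 14.8, 25.1 and 12.3 times, and 17, 19 and 19 lower of 29, 29 and 28. Most genes differ between these classes, with 59.5%, 57.2% and 57.5% of all genes past 1.5-fold in either direction. *Camk1d*, *Camkk1*, *Camkk2*, *Camkv*, *Crtc1*, *Nrgn*, *Prkce* and *Shank3* were at 0.106 to 0.457 of the excitatory-like level in every library.

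Between libraries the list changed little in excitatory-like nuclei. Of 28 genes tested, *Nfatc3*, an NFAT factor that calcineurin activates, was the one past 1.5-fold in *Nav1* KO over C57BL/6J, at 0.648. It was at 0.642 in BTBR over C57BL/6J, where *Camkv*, a kinase-like protein without activity that binds calmodulin, was at 1.57 (1.52–1.61). Of all genes tested, 1.95% were higher and 3.34% lower in *Nav1* KO, and 5.57% higher and 4.62% lower in BTBR.

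To see which other genes were spread like the members, correlations of log2(CPM + 1) were taken over 31 points, each a class of at least 100 nuclei in a library, from 12 classes and 12260 genes. The points of a library share its depth, and the points of a class share its clusters, so these are descriptions only. *Camk2a* was most like *Fbxw7* (Pearson's r = 0.950), *Camk2b* like *Kcna4* (0.960) and *Atp2b1* (0.956), and *Ppp3ca* like *Nedd4l* (0.926) and *Phactr1* (0.915). *Camk2g* was most like *B930095G15Rik* (0.946) and *Grk3* (0.908), *Prkca* like *Dcx* (0.885), *Prkcb* like *Fnbp1l* (0.886) and *Camk2d* like *Plcb4* (0.861). *Ppp3cb* and *Ppp3r1*, which varied least between the points, had no gene above 0.80, with *Gm12940* (0.759) and *Dnajc8* (0.792) first. Among the members, *Camk2b* and *Ppp3ca* were most alike at 0.786, and *Camk2g* ran against *Prkcb* at −0.688.

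At the low end, *Prkca* had 0 counts in the 52 endothelial-like nuclei of C57BL/6J, which allows a level of up to 41.5 CPM, and *Ppp3r1* had 0 counts in its 23 nuclei like olfactory ensheathing glia, which allows up to 69.7 CPM. Each limit, set at 3 counts, is within the range of other classes, so no absence could be detected at this depth. Over the 31 points of at least 100 nuclei, the highest level was 3.20 times the lowest for *Ppp3cb*, 4.21 for *Ppp3r1*, 4.28 for *Camk2a* and 5.32 for *Prkcb*. It was 6.05 times for *Ppp3ca*, 6.73 for *Prkca*, 7.82 for *Camk2b*, 7.92 for *Camk2g* and 9.79 for *Camk2d*, which thus had the widest span.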

How the data were processed

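The authors deposited, for each of 3 libraries, a table of counts, as UMIs of a gene in a nucleus after cell calling, made with 10x Genomics 3′ chemistry and, per the labels, Cell Ranger 6.0.0 on the mm10 reference. Whether intronic reads were counted is not given in the sources used here. The kept nuclei of C57BL/6J, *Nav1* KO and BTBR held 38701384, 50962468 and 48936236 counts. The libraries were merged without integration in Seurat 5.3.0 (SeuratObject 5.2.0, R 4.3.3, Matrix 1.6.5), scaled to 10000 counts per nucleus, and clustered by Louvain at resolution 1.0 from 2000 variable genes, without the members and the pathway list, and 30 principal components.

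A cluster took the name of the marker list with the highest median fold over other clusters, where that fold was at least 2, was at least 2 times that of the next list and rested on at least 3 detected markers. With no such list it was excitatory-like where *Slc17a7* and *Slc17a6* were at least 10 times *Gad1* and *Gad2*. Clusters with over 40% of nuclei among the 10% highest Scrublet scores stayed unnamed, as did 4186 C57BL/6J, 2690 *Nav1* KO and 4224 BTBR nuclei in all. Scrublet (scanpy 1.11.5, expected rate 10%) called 1, 1 and 0 doublets in C57BL/6J, *Nav1* KO and BTBR, so its threshold did not work and no nucleus was removed.

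Levels are summed counts scaled to CPM with exact Poisson intervals, ratios have intervals from the binomial split of counts, and shares have Clopper-Pearson intervals, all at 95% and covering counting error only. A gene was tested for 1.5-fold where it reached 20 CPM in either group, and a count of 0 was given the limit of 3 counts. Python 3.11.15, numpy 2.4.6, scipy 1.17.1, pandas 2.3.3 and matplotlib 3.10.9 were used. Counts of 7062 genes were simulated for *Nav1* KO over C57BL/6J in excitatory-like nuclei. Of these, 100 of 100 genes changed 2-fold, 98 of 98 changed 0.5-fold and 0 of 6864 unchanged genes passed 1.5-fold. The intervals held the true ratio for 97.0%, 92.9% and 94.9%. The counts were Poisson draws from the C57BL/6J profile, which is the model the intervals assume. They held no spread between mice or libraries, so this checks the calculation alone.

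The members, marker lists and pathway list were chosen with earlier results of these data known. Some genes of these lists are not reported here. The genes named are the members, the pathway genes past 2-fold in all 3 libraries, a few past it in some of them or past 1.5-fold between libraries, chosen after their values were seen, and the 3 genes most like each member, of which the first are printed. The alternatives tried were other resolutions and components, each library clustered alone, nuclei gated one by one, a stricter mitochondrial limit, removal of high doublet scores, division by the median ratio, the mean of per-nucleus CPM, equal weight for subclasses, and other thinning depths.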

Additional observations from a re-analysis of the deposited data

Results flagged for a closer look

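In *Nav1* KO over C57BL/6J, *Prkca* was at 1.592 (1.11–2.27) in medium-spiny-like nuclei, from 45.8 to 72.9 CPM, and at 0.912 (0.855–0.973) in excitatory-like nuclei, where the median of all genes was 0.920. The medium-spiny-like ratio was 1.11 at resolution 2.0, 1.14 with 10 principal components and resolution 0.3, and 1.17 with nuclei gated one by one, each under 1.5-fold. The difference between the classes was not tested, since each group is 1 library, and the *Nav1* KO value rests on 284 nuclei.

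In BTBR over C57BL/6J, *Camk2d* was at 1.956 (1.43–2.68) in medium-spiny-like nuclei and at 1.342 (1.02–1.76) in oligodendrocyte-like nuclei, against 0.9547 in excitatory-like nuclei. The medium-spiny-like ratio turned to 0.574 at resolution 2.0, and was 1.06 with 10 principal components and resolution 0.3 and 1.10 with gated nuclei. The difference was not tested, and the medium-spiny-like levels rest on 77 counts in C57BL/6J and 93 in BTBR.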

How the results depend on the processing

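A member's ratio kept its side of 1.5-fold in 1738 comparisons of a ratio under an alternative. Of the others, 59 no longer passed 1.5-fold, 37 newly passed it and 2 that had passed it turned direction. A ratio within 1.5-fold that crossed 1 was counted as kept, so turns of direction among such ratios were not counted. In no alternative was a member past 1.5-fold between *Nav1* KO and C57BL/6J or between BTBR and C57BL/6J over all excitatory-like nuclei, and the counts for layers and astrocyte-like nuclei stayed within 1.5 times. The number of members higher in excitatory-like than interneuron-like nuclei of C57BL/6J, 1, became 3 with 10 principal components and resolution 0.3, 2 with each library clustered alone, 2 after division by the median ratio, 3 with the mean of per-nucleus CPM and 4 without nuclei with a UMI of the other class, an alternative added after seeing the data. In *Nav1* KO it went from 2 to 1 at resolution 2.0 and to 1 with gated nuclei, and in BTBR from 1 to 2 with 10 components and 2 without the nuclei with a UMI of the other class.

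The number of members past 1.5-fold in medium-spiny-like over excitatory-like nuclei fell from 6 to 1 at resolution 2.0, 2 with 10 components and 0 with gated nuclei in C57BL/6J. In *Nav1* KO it fell from 6 to 0 at resolution 2.0 and 0 with gated nuclei, and in BTBR from 5 to 1 with 10 components and 0 with gated nuclei. At resolution 2.0 the class also took in a cluster of 1094 nuclei, 28.1% of them with high doublet scores and with glutamate transporter transcripts at 532 CPM. The cause of the other changes was not tested.

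The difference in *Camk2a* share between excitatory-like and interneuron-like nuclei went, in C57BL/6J, from 13.1 percentage points to 22.1 with 10 components, 17.6 with each library alone and 18.6 without nuclei with a UMI of the other class. In *Nav1* KO it went from 13.2 to 25.4, 22.5 and 24.4 under the same settings, 16.6 with gated nuclei and 16.4 with the mean of per-nucleus CPM. In BTBR it went from 13.7 to 21.2 with 10 components, 11.2 with gated nuclei, 15.8 with the mean and 20.7 without nuclei with a UMI of the other class. In medium-spiny-like nuclei *Camk2d* in BTBR over C57BL/6J turned from 1.96 to 0.574 at resolution 2.0, and *Prkca* over excitatory-like nuclei in BTBR from 0.532 to 1.01 with gated nuclei. *Prkca* in *Nav1* KO over C57BL/6J there went from 1.59 to 1.11 at resolution 2.0, 1.14 with 10 components and 1.17 with gated nuclei. With 10 components no layer 5 extratelencephalic-like class was named, and gated nuclei gave no layers. No paired analysis was possible because each group is 1 library, and for the same reason no replicate could be left out.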

Other observations

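In oligodendrocyte-like nuclei, *Ppp3ca* was at 748 CPM (694–805) in C57BL/6J, 539 CPM (485–598) in *Nav1* KO and 519 CPM (458–586) in BTBR, ratios of 0.721 and 0.694 to the C57BL/6J library that both share. *Prkcb* was at 0.605 (0.441–0.822) in *Nav1* KO over C57BL/6J, and *Prkca* was at 1.48 (1.02–2.12) in BTBR over C57BL/6J in the same class. *Slc17a7* was at 400, 431 and 425 CPM in these nuclei, but other genes differed between the libraries. The oligodendrocyte marker *Mbp* was at 1879, 2355 and 3361 CPM, *Drd1* at 30.4, 24.1 and 11.9 CPM and *Gad1* at 64.9, 112 and 131 CPM. The part of RNA from other cells in these values was not tested.

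In microglia-like nuclei, *Ppp3ca* was at 730, 499 and 474 CPM in C57BL/6J, *Nav1* KO and BTBR, from 127, 170 and 175 nuclei. Over all kept nuclei without regard to class, *Ppp3ca* was at 0.734 in *Nav1* KO over C57BL/6J and *Camk2b* at 0.744, both further from 1 than the 0.857 and 0.792 of excitatory-like nuclei, and the classes made up different shares of the libraries.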
